A study of Mus musculus with 30 samples.

Results

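Cholesterol synthesis and SREBP2 target genes were followed in mouse embryonic stem cells (ESCs) as a list of names: Hmgcs1, Sqle, Idi1, Insig1, Fdps, Lss, Dhcr7 and Cyp51. The list was chosen with earlier results of these data known. The members were the array rows whose gene symbol equals one of these names, with every probe kept. Of the 8 genes, 7 were found, on 11 of 25697 rows that carry 18097 symbols, and Hmgcs1 is not analysed here. Of the 11 rows, 10 passed the detection filter (detection p under 0.05 on at least 3 arrays), which 15151 rows of 11177 genes passed in all. The row left out is the fourth Insig1 probe, detected on none of the 30 arrays.

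The study asked what each of several phosphoregulators, that is kinases and phosphatases or their subunits, does to keep ESCs undifferentiated. Ainv15 ESCs, a line that carries the rtTA transactivator, received an shRNA that depletes the endogenous mRNA and a lentiviral copy that the shRNA cannot target, driven by a doxycycline (Dox) responsive promoter with an IRES-eGFP. Arrays of the rescue clones Bub1b_R, Chek1_R, Ppm1g_R, Ppp2r1b_R and Ctrl_R (Control_R in the labels, where the strain 129P2/OlaHsd is given for this clone only) were made with Dox at 1 µg/ml and after 5 days without Dox, with 3 arrays in each of the 10 conditions. All clones were grown on mouse embryonic fibroblast feeders that were removed by pre-plating, then on gelatin with LIF. Per the methods, 3 GFP-sorted clones were derived for each rescue gene, and whether the arrays of a label are of 1 clone or of several is not given in the sources used here. Bub1b_R, Chek1_R, Ppm1g_R and Ppp2r1b_R thus keep their rescue copy with Dox and lose it without Dox, and Ctrl_R shares the Dox treatment. The methods state in general that experiments were repeated, but do not tie the 3 arrays of a condition to separate cultures or clones, so p-values measure only the spread between these arrays, which may be technical.

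Cholesterol is built from acetyl-CoA through mevalonate, the isoprenoid diphosphates, squalene and lanosterol. When membrane cholesterol is low, SCAP carries the transcription factor precursor SREBP2 from the endoplasmic reticulum to the Golgi, where proteases release its active part, which raises transcription of nearly every enzyme of the pathway. When cholesterol is plentiful, INSIG1 holds SCAP in the endoplasmic reticulum, and Insig1 is itself a target of SREBP2. In ESCs, as in other dividing cells, the pathway supplies membranes and the isoprenoid groups attached to proteins.

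Promoter sequence is shown for the members that moved differently between Ppm1g_R and Ctrl_R or that carry a match to a motif, because SREBP2 acts through short DNA elements with the cofactor NF-Y, which binds CCAAT. In the RefSeq promoters of GRCm38.p6, 5 of the 7 genes had an entry. For each, 250 bases before the start were searched on both strands, and the nearest 150 are printed 5′ to 3′ on the gene's strand, with motif matches in capitals. The motif TCACNCCAC, a form of the sterol regulatory element, was in 1.05% of all 32817 promoters and in none of these. ATCACNNCA, a looser form that can overlap it, was in 2.3% and matched Cyp51, 89 bases before the start. CACGTG, the E-box that SREBPs also bind, was in 6.02% and matched Insig1 at 101 bases. CCAAT was in 33.8% and matched every one of the 5 genes, at 29 bases in Cyp51, 62 in Lss, 45 and 14 in Idi1, 85 and 49 at the most downstream of the 3 Dhcr7 starts, and 216 in Insig1, outside the printed stretch. The middle Dhcr7 start, not printed, has CACGTG at 164 bases. The matches are descriptions of letters and not of binding.
Insig1, chr5:28071262-28071411, plus strand: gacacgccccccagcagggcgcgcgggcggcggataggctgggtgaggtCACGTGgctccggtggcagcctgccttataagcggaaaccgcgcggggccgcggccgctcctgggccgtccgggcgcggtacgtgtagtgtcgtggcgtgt
Lss, chr10:76531455-76531604, plus strand: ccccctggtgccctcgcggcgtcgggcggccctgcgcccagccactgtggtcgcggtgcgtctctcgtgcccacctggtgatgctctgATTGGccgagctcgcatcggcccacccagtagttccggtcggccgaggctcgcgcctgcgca
Dhcr7 most downstream start, chr7:143830064-143830213, plus strand: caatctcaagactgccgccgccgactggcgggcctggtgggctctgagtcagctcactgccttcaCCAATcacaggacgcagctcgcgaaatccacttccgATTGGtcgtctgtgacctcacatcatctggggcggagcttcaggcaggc
Cyp51, chr5:4104698-4104847, minus strand: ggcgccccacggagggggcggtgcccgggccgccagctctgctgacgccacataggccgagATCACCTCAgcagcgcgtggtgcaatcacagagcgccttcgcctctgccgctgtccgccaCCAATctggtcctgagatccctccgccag
Idi1, chr13:8885456-8885605, plus strand: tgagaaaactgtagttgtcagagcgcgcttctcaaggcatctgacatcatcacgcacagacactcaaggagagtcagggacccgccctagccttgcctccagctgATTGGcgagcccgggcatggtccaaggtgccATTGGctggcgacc

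On the same build the genes lie at chr15:59315092-59331193 (Sqle), chr13:8885606-8892396 (Idi1), chr5:28071412-28078662 (Insig1), chr3:89093588-89101967 (Fdps), chr10:76531565-76557139 (Lss), chr7:143823167-143848410 (Dhcr7) and chr5:4080674-4104697 (Cyp51). The array file names no build, so probes were matched by symbol only.

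Each array detected 11733 to 13685 probes, and replicate arrays correlated at 0.9901 to 0.9966. The 12 Bub1b_R and Ctrl_R arrays had a lowest detected signal of 12.9 to 20.9 and the other 18 of 27.8 to 58.1, so a level compared between a clone of the second set and Ctrl_R spans both sets, and clone and array set cannot be told apart. A change within a clone stays within its set. These sets rest on the lowest detected signal only. The sample records of Ctrl_R are older than those of the other clones. Clone and time of deposit thus cannot be told apart in any comparison with Ctrl_R, that of Bub1b_R included. The labels were checked on the targeted genes: Ppm1g fell in Ppm1g_R without Dox (log2 change -1.25, adjusted p = 4.5e-09), Bub1b (-0.14, 0.217) and Ppp2r1b (0.20, 0.365) did not pass in their clones. The brightest Chek1 probe was detected on 0 of 3 Chek1_R arrays with Dox and 3 of 3 without, at least 1.35-fold higher without Dox (limma adjusted p = 0.00115). The bound sets the mean without Dox against the lowest level of a detected probe on the arrays with Dox. Chek1 was below Ctrl_R in both states, at a log2 difference of -1.87 with Dox as measured and -1.07 without. The order with and without Dox goes against the label only if the probe lies within the rescue copy, which lacks the sequence the shRNA targets; the position of the probe is not given in the file, so the probe may check only the endogenous mRNA. These arrays are called the arrays labelled Chek1_R. ESC markers were detected on all 30 arrays for 9 of 9 tested genes of 10 listed, with a summed log2 level of 14.22 to 15.26. On Dox withdrawal 3, 2, 1 and 4 of them fell in Bub1b_R, Chek1_R, Ppm1g_R and Ppp2r1b_R and 0 in Ctrl_R, while 7, 7, 6 and 4 of 7 primitive streak markers rose, and 2 in Ctrl_R. Of all probes, 2.67%, 4.77%, 2.07% and 2.05% fell in the same order, and 0.396% in Ctrl_R. The shares that rose were 2.94%, 4.49%, 2.3% and 2.77%, and 0.706% in Ctrl_R. All these counts and shares use the threshold given below. Of the feeder fibroblast markers, 7 of 10 were tested, 2, 4, 2 and 3 rose in the same order and 0 in Ctrl_R, 1 fell on the arrays labelled Chek1_R and 1 in Ppm1g_R, their summed log2 level ran from 9.31 to 9.99, and Col1a2, Lum and Postn were detected on no array. The part of differentiation or of feeder RNA in the results on cholesterol genes was not tested. In bulk RNA, fewer cells of a type and less RNA per cell cannot be told apart.

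**Figure D1:**
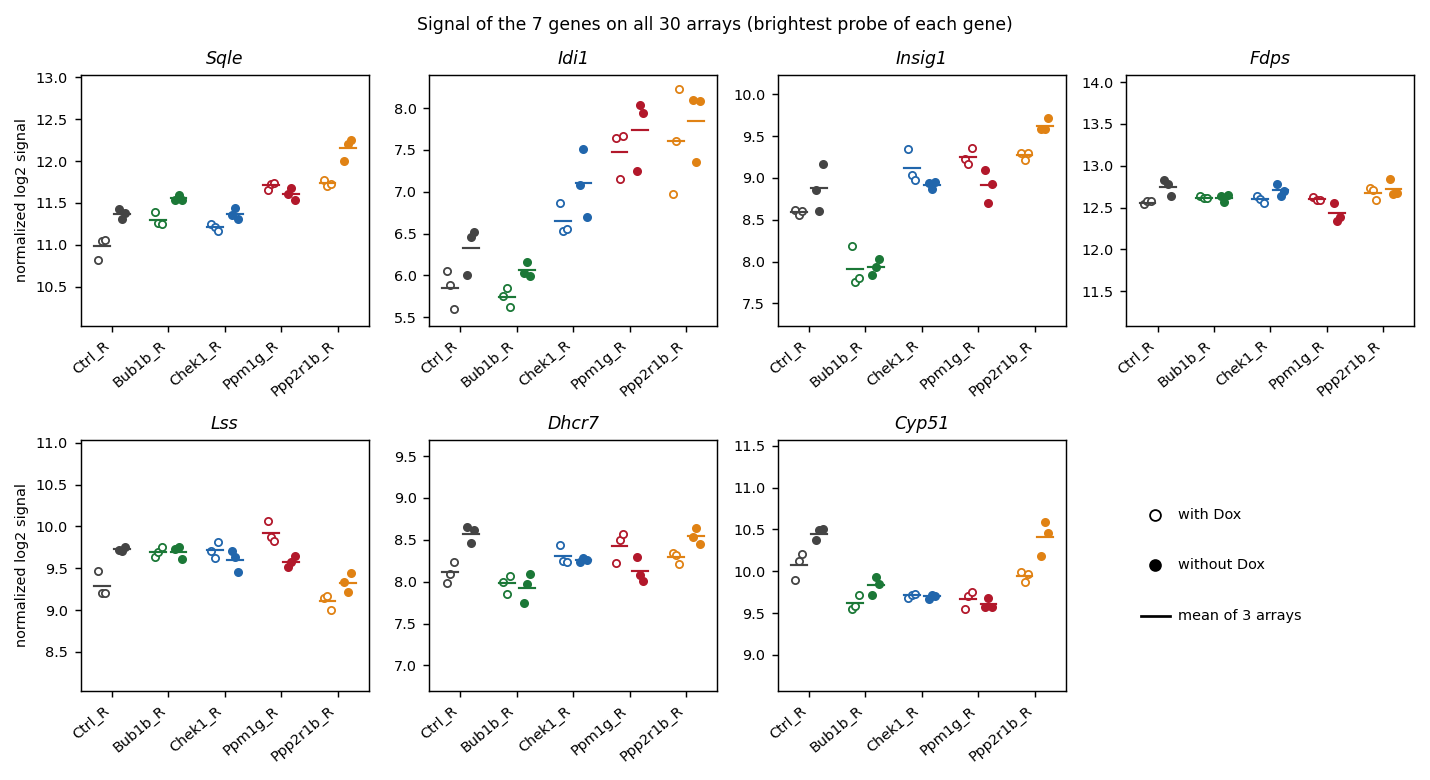
Normalized log2 signal (vertical axes, not from 0) of the brightest probe of each of the 7 members on each of the 30 arrays, by clone and Dox; open points are arrays with Dox, filled points arrays without Dox and short lines the means of 3. Lss in Ppm1g_R runs from 9.83 to 10.07 with Dox and from 9.51 to 9.65 without, while in Ctrl_R it runs from 9.20 to 9.47 and from 9.71 to 9.76.

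On Dox withdrawal the 7 genes moved by small amounts, and not in the same direction in every clone. All levels are normalized log2 signals of the brightest probe of a gene, and a change is the mean of 3 arrays without Dox minus that of 3 with Dox, from a limma fit of all 30 arrays. A gene passed at a Benjamini-Hochberg adjusted p under 0.05 over all 15151 probes and a change of at least 1.5-fold (0.58 on the log2 scale). None of the 7 passed in any clone, where 5.60% of all probes passed in Bub1b_R, 9.27% in the arrays labelled Chek1_R, 4.37% in Ppm1g_R, 4.82% in Ppp2r1b_R and 1.10% in Ctrl_R, either direction. At an unadjusted p under 0.05 in limma the numbers were 2, 1, 4, 5 and 6 of 7 in the same order, where 34.7%, 39.1%, 33.9%, 36.0% and 21.7% of all probes had one. By the methods' t-test they were 2, 1, 1, 4 and 5 (32.7%, 36.0%, 28.5%, 24.4% and 17.9%), of which 1, 0, 0, 0 and 0 kept an adjusted p under 0.05 (16.3%, 20.6%, 8.57%, 3.60% and 0.389%). The members' shares in Bub1b_R and the arrays labelled Chek1_R were thus below those of all probes in both tests at the unadjusted p. At an adjusted p under 0.05 with no limit on size, limma gave 1 of 7 in Bub1b_R, higher (11.6% of all probes were higher), 0 in the arrays labelled Chek1_R (30.9% in either direction), 4 in Ppm1g_R, lower (11.7%), 3 in Ppp2r1b_R, higher (12.4%), and 4 in Ctrl_R, higher (4.07%). The median change of the 7 was 0.02 in Bub1b_R, -0.01 in the arrays labelled Chek1_R, -0.18 in Ppm1g_R, 0.25 in Ppp2r1b_R and 0.40 in Ctrl_R, beside medians of -0.02 to 0.00 over all probes. All 7 values were above 0 in Ctrl_R and in Ppp2r1b_R, and 1 of 7 in Ppm1g_R.

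Lss, which encodes lanosterol synthase and closes the sterol rings, differed most between Ppm1g_R and Ctrl_R. In Ppm1g_R its level was 10.07, 9.87 and 9.83 with Dox and 9.51, 9.58 and 9.65 without, so every array without Dox was below every array with it (change -0.34 ± 0.09, SE, n = 3 against 3, limma adjusted p = 0.0047). In Ctrl_R it was 9.47, 9.20 and 9.20 with Dox and 9.72, 9.71 and 9.76 without, again with no overlap but in the other direction (0.44 ± 0.09, limma adjusted p = 0.00209). The Lss levels of Bub1b_R lay between 9.61 and 9.76 on all 6 arrays, with a change of 0.00 ± 0.09. On the arrays labelled Chek1_R they were 9.71, 9.62 and 9.81 with Dox and 9.71, 9.63 and 9.45 without. In Ppp2r1b_R they were 9.14, 9.17 and 9.00 with Dox and 9.34, 9.22 and 9.44 without (0.23 ± 0.09, limma adjusted p = 0.0543). These Ppp2r1b_R groups did not overlap, and the value missed the threshold.

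Dhcr7, the reductase that makes cholesterol in the last step of one branch, had the same contrast between those clones. In Ctrl_R its level was 7.99, 8.09 and 8.23 with Dox and 8.65, 8.46 and 8.62 without, with no overlap (0.47 ± 0.10, limma adjusted p = 0.00485). In Ppm1g_R it was 8.22, 8.50 and 8.57 with Dox and 8.29, 8.08 and 8.01 without (-0.30 ± 0.10, limma adjusted p = 0.0305). The lowest Ppm1g_R array with Dox overlapped the highest without, and leaving out 1 array moved the limma adjusted p of this change from 0.00716 to 0.155, the highest without replicate 3 with Dox. In Bub1b_R it was 8.00, 7.85 and 8.07 with Dox and 7.74, 7.97 and 8.09 without, and the groups overlapped. On the arrays labelled Chek1_R the 6 values lay between 8.24 and 8.44. In Ppp2r1b_R they were 8.34, 8.32 and 8.21 with Dox and 8.53, 8.64 and 8.45 without (0.25 ± 0.10, limma adjusted p = 0.0755), groups that did not overlap.

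Insig1 encodes the sterol-dependent anchor of SCAP. With the brightest of its probes, Ppm1g_R stood at 9.22, 9.17 and 9.36 with Dox and at 9.10, 8.70 and 8.93 without (-0.34 ± 0.12, limma adjusted p = 0.0495). Leaving out 1 array moved that adjusted p from 0.0223 to 0.25, the change being -0.23 when replicate 2 without Dox was left out. In Ctrl_R it stood at 8.62, 8.56 and 8.61 with Dox and at 8.85, 8.61 and 9.17 without, where 1 array without Dox lay among those with Dox (0.28 ± 0.12, limma adjusted p = 0.181). Ppp2r1b_R had 9.30, 9.21 and 9.30 with Dox and 9.58, 9.58 and 9.71 without (0.35 ± 0.12, limma adjusted p = 0.04, which was 0.0605 to 0.129 with any 1 of its 6 arrays left out). With this probe Bub1b_R had the lowest levels, 8.19, 7.76 and 7.80 with Dox and 7.84, 7.93 and 8.03 without. The arrays labelled Chek1_R had 9.35, 9.03 and 8.98 with Dox and 8.94, 8.87 and 8.95 without (-0.20 ± 0.12, limma adjusted p = 0.252). On the other 2 probes that passed the filter Ppm1g_R had the lowest means, 7.98 and 8.16 with Dox and 7.82 on both without, against 8.36 on both with Dox and 8.33 and 8.38 without in Bub1b_R.

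Sqle encodes squalene epoxidase, which makes the first oxygenated intermediate and is a control point of the pathway. It was at 10.82, 11.05 and 11.06 in Ctrl_R with Dox and at 11.43, 11.31 and 11.38 without (0.40 ± 0.07, limma adjusted p = 9.6e-04). In Ppp2r1b_R it was at 11.78, 11.70 and 11.73 with Dox and at 12.00, 12.21 and 12.25 without (0.42 ± 0.07, limma adjusted p = 1.1e-04). In Bub1b_R it was at 11.39, 11.26 and 11.25 with Dox and at 11.54, 11.59 and 11.53 without (0.26 ± 0.07, limma adjusted p = 0.00861). In all 3 of these clones the Sqle groups did not overlap. On the arrays labelled Chek1_R they did not overlap either, at 11.25, 11.21 and 11.16 with Dox and 11.36, 11.44 and 11.31 without (0.16 ± 0.07, limma adjusted p = 0.0898). Ppm1g_R alone had a value below 0, from 11.65, 11.73 and 11.74 with Dox to 11.61, 11.68 and 11.54 without, in overlapping groups (-0.10 ± 0.07, limma adjusted p = 0.357). The second Sqle probe gave 0.13 ± 0.08 there, so the sign of that small value depended on the probe, and 0.57 ± 0.08 in Ctrl_R.

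Cyp51 encodes the demethylase that acts on lanosterol, the product of Lss. It was at 9.89, 10.12 and 10.21 in Ctrl_R with Dox and at 10.37, 10.49 and 10.50 without (0.38 ± 0.09, limma adjusted p = 0.00887, and 0.0734 without replicate 1 with Dox). Ppp2r1b_R had 9.99, 9.87 and 9.97 with Dox and 10.18, 10.59 and 10.46 without (0.47 ± 0.09, limma adjusted p = 4.1e-04). Neither pair of groups overlapped. Bub1b_R had 9.55, 9.59 and 9.71 with Dox and 9.71, 9.93 and 9.85 without, a smaller difference that missed the threshold (0.21 ± 0.09, limma adjusted p = 0.0883). The arrays labelled Chek1_R lay between 9.67 and 9.73 on all 6, and Ppm1g_R between 9.55 and 9.75.

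Fdps and Idi1 act before squalene. Fdps, which joins isoprenoid diphosphates into farnesyl diphosphate, was at 12.63, 12.59 and 12.59 in Ppm1g_R with Dox and at 12.55, 12.34 and 12.39 without (-0.18 ± 0.06, limma adjusted p = 0.049, and 0.0106 to 0.214 with 1 array left out, the highest with replicate 2 without Dox left out). In Ctrl_R it was at 12.54, 12.58 and 12.58 with Dox and at 12.83, 12.78 and 12.64 without (0.19 ± 0.06, limma adjusted p = 0.08). Both differences were without overlap and small in size. Idi1, the isomerase that makes dimethylallyl diphosphate, had the noisiest probe, with an SE of 0.26 for each change. Its changes ran from 0.24 in Ppp2r1b_R to 0.48 in Ctrl_R, above 0 in all 5 clones, and none had an adjusted p under 0.05 in limma.

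**Figure D2:**
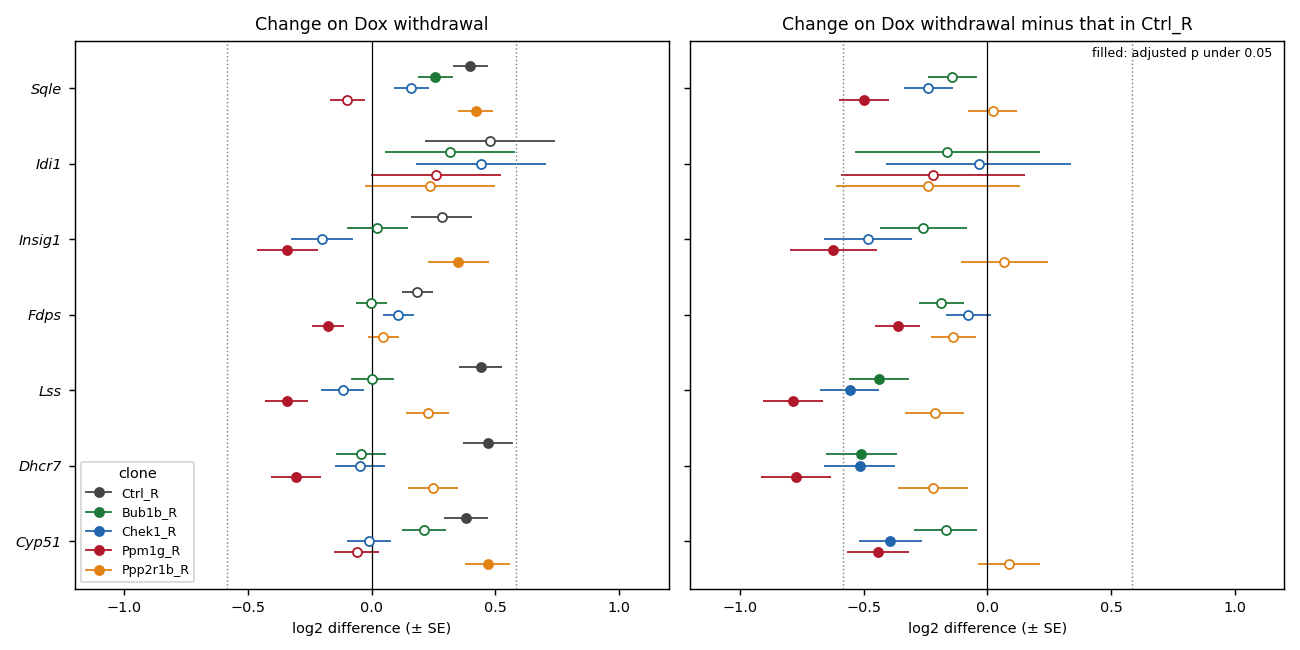
Left, log2 change on Dox withdrawal (without minus with Dox) of the brightest probe of each member by clone; right, that change minus the one in Ctrl_R; points are limma estimates, bars ± 1 SE, filled points have an adjusted p under 0.05 and dotted lines mark 1.5-fold. On the left all 7 Ctrl_R values lie above 0 and 6 of 7 Ppm1g_R values below 0; on the right Lss, Dhcr7 and Insig1 of Ppm1g_R lie past the dotted line at -0.78, -0.77 and -0.62.

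The change in each clone was then set against that in Ctrl_R, the clone that shared the Dox treatment. In Ppm1g_R, 3 of 7 genes were lower and passed, Lss at -0.78 ± 0.12 (1.72-fold, limma adjusted p = 1.1e-04), Dhcr7 at -0.77 ± 0.14 (1.71-fold, 7.3e-04) and Insig1 at -0.62 ± 0.18 (1.54-fold, 0.0199), where 2.54% of all probes passed in that direction. For each of the 3 genes the change was below 0 in Ppm1g_R and above 0 in Ctrl_R, and under 1.5-fold in both. The Insig1 value passed narrowly, and its limma adjusted p was 0.0564 without replicate 3 of Ppm1g_R with Dox, 0.0668 without replicate 2 of Ppm1g_R without Dox and 0.0715 without replicate 3 of Ctrl_R without Dox. At a neqc offset of 200 in place of 16, Dhcr7 (-0.49) and Insig1 (-0.45) were under the size limit. The other Insig1 probes gave -0.41 (limma adjusted p = 0.0244) and -0.62 (2.2e-04), and the latter passed. With no limit on size, 6 of 7 had an adjusted p under 0.05 in Ppm1g_R, all lower, where 6.00% of probes did; Sqle was at -0.50 (0.00158), Fdps at -0.36 (0.00933) and Cyp51 at -0.44 (0.0215), the last at 0.0748 without replicate 1 of Ctrl_R with Dox.

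In the other clones no member passed against Ctrl_R. Bub1b_R had 0 of 7 lower (2.45% of probes), the arrays labelled Chek1_R 0 of 7 (4.62%) and Ppp2r1b_R 0 of 7 (1.57%), with 2, 5 and 0 at an unadjusted p under 0.05 in limma, where 25.5%, 29.4% and 22.8% of probes had one in either direction. A count of 1 was reached in Bub1b_R without replicate 3 of its arrays without Dox. It was also reached in the arrays labelled Chek1_R without their replicate 2 with Dox, their replicate 1 without Dox, replicate 1 of Ctrl_R with Dox or replicate 2 of Ctrl_R without Dox. At an adjusted p under 0.05 with no limit on size there were 2 lower in Bub1b_R (6.32%), Lss at -0.44 (0.0178) and Dhcr7 at -0.51 (0.0195), which reached 0.0555 and 0.0663 with 1 array left out. There were 3 lower in the arrays labelled Chek1_R (9.80%), Lss at -0.56 (0.00179), Dhcr7 at -0.52 (0.0124) and Cyp51 at -0.39 (0.0316, up to 0.108 with 1 array left out), and 0 in Ppp2r1b_R (4.52%). These counts use the brightest probe, by which Sqle was at -0.14 in Bub1b_R (limma adjusted p = 0.412) and -0.24 on the arrays labelled Chek1_R (0.107). The second Sqle probe was lower there, at -0.37 (0.043) and -0.50 (0.00404), under the size limit. It was at -0.44 (0.0161) in Ppm1g_R and -0.23 (0.25) in Ppp2r1b_R. With the brightest probes, the medians of the 7 differences were -0.19, -0.39, -0.50 and -0.14 in Bub1b_R, the arrays labelled Chek1_R, Ppm1g_R and Ppp2r1b_R. These 4 comparisons share the 6 Ctrl_R arrays.

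Whether the change differed among the 4 clones was tested directly, without Ctrl_R, by limma's F-test. It passed at an adjusted p under 0.05 for 5 of 7 members, Sqle (0.00336), Lss (0.00786), Cyp51 (0.00964), Insig1 (0.0219) and Dhcr7 (0.0375), where 24.0% of all probes passed. Idi1 (0.966) and Fdps (0.0898) did not pass. The mean change over the 4 clones passed for 0 of 7, where 3.56% of probes passed in either direction, with 3 at an unadjusted p under 0.05 in limma, where 52.2% of probes had one. At an adjusted p under 0.05 with no limit on size, Sqle (0.19 ± 0.04, 1.3e-04) and Cyp51 (0.15 ± 0.04, 0.00674) were higher, 2 of 7 where 22.0% of probes were.

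**Figure D3:**
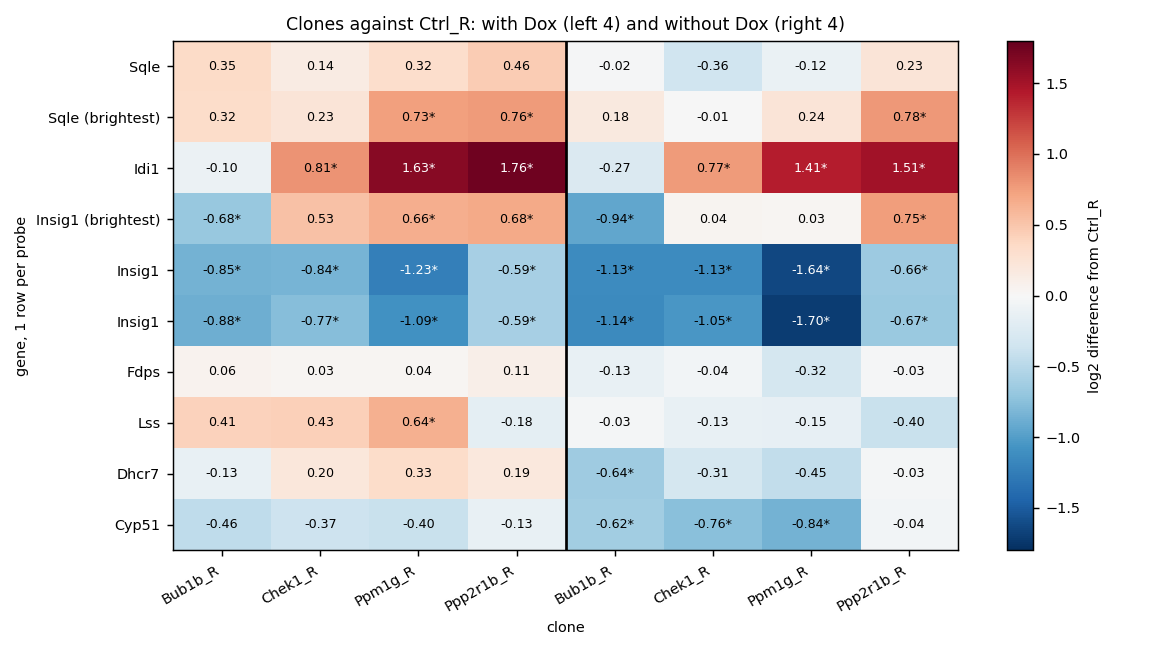
Log2 difference in level from Ctrl_R for the 10 tested probes (1 line each), with Dox in the left 4 columns and without Dox in the right 4; colour and number give the limma estimate, and an asterisk marks an adjusted p under 0.05 with at least 1.5-fold. Idi1 lies above Ctrl_R by 0.77 to 1.76 in every column but those of Bub1b_R, and the brightest Insig1 probe is higher in Ppp2r1b_R where the other 2 are lower.

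Levels were next compared with Ctrl_R at the same Dox state. Idi1 was higher by 1.76 ± 0.26 in Ppp2r1b_R with Dox (limma adjusted p = 4.1e-06) and 1.51 without (2.3e-05), by 1.63 (1.0e-05) and 1.41 (5.4e-05) in Ppm1g_R, and by 0.81 (0.014) and 0.77 (0.0145) in the arrays labelled Chek1_R. The last pair was lost, with Dox, when replicate 1 of those arrays (0.70, limma adjusted p = 0.0605) or replicate 3 of Ctrl_R (0.68, 0.0648) was left out, and without Dox when replicate 2 (0.56, 0.0983) or replicate 1 of Ctrl_R (0.61, 0.0788) was. The size of these Idi1 values depended on the offset: at 200 in place of 16 they were, with and without Dox, 0.67 and 0.65 in Ppp2r1b_R, 0.59 and 0.60 in Ppm1g_R, and 0.24 and 0.29 in the arrays labelled Chek1_R, under the size limit. At that offset Sqle was at 0.71 and 0.74 in Ppp2r1b_R. On the arrays, Idi1 was at 6.05, 5.88 and 5.60 in Ctrl_R with Dox and at 6.97, 7.60 and 8.23 in Ppp2r1b_R with Dox, which did not overlap. All 3 clones are of the array set with the higher lowest detected signal, and in Bub1b_R, of the same set as Ctrl_R, Idi1 was at 5.75, 5.85 and 5.62 with Dox, -0.10 from Ctrl_R (limma adjusted p = 0.797). Clone and array set cannot be told apart for Idi1 in those 3 clones. Sqle was higher by 0.73 in Ppm1g_R with Dox and by 0.76 in Ppp2r1b_R with Dox and 0.78 without (limma adjusted p = 4.3e-09, 2.9e-09 and 1.1e-09). The second Sqle probe gave smaller values for the same 3 comparisons, 0.32, 0.46 and 0.23.

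Lower levels than in Ctrl_R without Dox were seen for Cyp51, at -0.62 in Bub1b_R (limma adjusted p = 2.2e-06), -0.76 in the arrays labelled Chek1_R (1.1e-07) and -0.84 in Ppm1g_R (1.5e-08). Cyp51 was also below Ctrl_R with Dox by less than the size limit, at -0.46, -0.37 and -0.40. Dhcr7 was lower in Bub1b_R without Dox (-0.64, limma adjusted p = 9.2e-06), and Lss was higher in Ppm1g_R with Dox (0.64, 8.0e-07). The Bub1b_R differences lie within 1 array set by lowest detected signal, but clone and time of deposit cannot be told apart there. Leaving out replicate 1 of Bub1b_R without Dox put Dhcr7 at -0.54 and Cyp51 at -0.57, under the size limit. Lss in Ppm1g_R was at 0.56 when replicate 1 with Dox was left out. Without Dox, the numbers of 7 that passed were 3 lower in Bub1b_R (11.7% of probes), 1 higher (14.1%) and 1 lower (14.6%) in the arrays labelled Chek1_R, 1 higher (16.7%) and 1 lower (16.8%) in Ppm1g_R, and 3 higher in Ppp2r1b_R (16.6%). With Dox they were 1 lower in Bub1b_R (6.09%), 1 higher in the arrays labelled Chek1_R (9.75%), 4 higher in Ppm1g_R (14.8%) and 3 higher in Ppp2r1b_R (14.2%).

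The Insig1 probes disagreed in these level comparisons. The brightest was lower in Bub1b_R (-0.94 without Dox and -0.68 with Dox) and higher in Ppp2r1b_R (0.75 and 0.68) and in Ppm1g_R with Dox (0.66). The other 2 probes that passed the filter were lower than Ctrl_R in all 8 comparisons, from -0.59 to -1.70. In Bub1b_R, within the array set of Ctrl_R by lowest detected signal, all 3 probes were lower and passed. For the change on withdrawal in Ppm1g_R the 3 probes gave -0.34, -0.16 and -0.34, the same sign.

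The other genes of the pathway were counted as lists. Of 13 further synthesis enzymes, 11 were on the array and 10 were tested, and on withdrawal 2 rose, both on the arrays labelled Chek1_R, and none fell in any clone. The 2 were Ebp, the sterol isomerase (0.97, limma adjusted p = 1.3e-10), and Hsd17b7, a reductase of sterol intermediates (0.88, 3.1e-11). On the arrays labelled Chek1_R 4.49% of all probes rose and passed. Sc5d, the desaturase before Dhcr7, was at 0.55 in Ctrl_R (limma adjusted p = 0.00664), under the size limit. The median change of the 10 was 0.17, 0.17, 0.06, 0.27 and 0.26 in Bub1b_R, the arrays labelled Chek1_R, Ppm1g_R, Ppp2r1b_R and Ctrl_R. Against Ctrl_R, 2 enzymes were higher and passed on the arrays labelled Chek1_R, again Hsd17b7 (0.75, limma adjusted p = 5.6e-07) and Ebp (0.72, 1.2e-05), and 1 was lower and passed in Ppm1g_R, Mvd, the mevalonate diphosphate decarboxylase, at -0.76 ± 0.12 (limma adjusted p = 1.1e-04), which is named here after its value was seen. Of all probes, 4.37% were higher and passed on the arrays labelled Chek1_R, and 2.54% were lower and passed in Ppm1g_R.

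Of 6 genes of sterol sensing and SREBP processing, all tested, none passed in any clone. Srebf2, which encodes SREBP2, had changes of -0.21 to 0.12, none with an adjusted p under 0.05 in limma, and neither Srebf1 nor Scap had one. The Srebf1 probe that passed the filter was near the detection limit. It was detected on 0 of 3 arrays labelled Chek1_R with Dox and 1 of 3 without, and on 1 of 3 Ppp2r1b_R arrays with Dox. Its changes there could hardly be measured. Insig2, the paralog of Insig1, was higher in all 5 clones by 0.17 to 0.43 with limma adjusted p from 3.3e-05 to 0.0485, each under the size limit. These values are from the brighter of the pair of Insig2 probes that passed the filter; the mean of the dimmer one was also higher without Dox in the 4 clones, but in Ctrl_R it was 7.10 with Dox and 6.99 without. Of 4 tested genes of sterol uptake and transport, 0 passed in limma, with 1, 0, 1, 2 and 2 at an unadjusted p under 0.05 in Bub1b_R, the arrays labelled Chek1_R, Ppm1g_R, Ppp2r1b_R and Ctrl_R. Of all probes, 34.7%, 39.1%, 33.9%, 36.0% and 21.7% had such a p in limma, in the same order. Among the 4 genes, Npc2, which carries cholesterol out of lysosomes, was at 0.02 to 0.33, and Tmem97 at -0.07 to 0.21.

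Among 8 tested genes of fatty acid synthesis and its regulators, Scd2, a fatty acid desaturase, rose on the arrays labelled Chek1_R (0.78, limma adjusted p = 5.7e-04). Acss2, which makes acetyl-CoA from acetate, was lower by 0.29 to 0.56 in the 4 clones, under the size limit, and at -0.13 in Ctrl_R, and Acly did not pass. Of 7 efflux and storage genes on the array, 4 were tested. Abcg1, a sterol exporter and a target of liver X receptors, fell by 1.23 on the arrays labelled Chek1_R (limma adjusted p = 1.7e-07), 0.89 in Ppm1g_R (4.1e-05), 0.66 in Bub1b_R (8.8e-04) and 0.66 in Ppp2r1b_R (0.00107), and was at -0.16 in Ctrl_R (0.56). Apoe, the lipid carrier, fell in Bub1b_R (-0.60) and on the arrays labelled Chek1_R (-0.65), and Soat1, which esterifies cholesterol, rose on the latter (0.66).

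**Figure D4:**
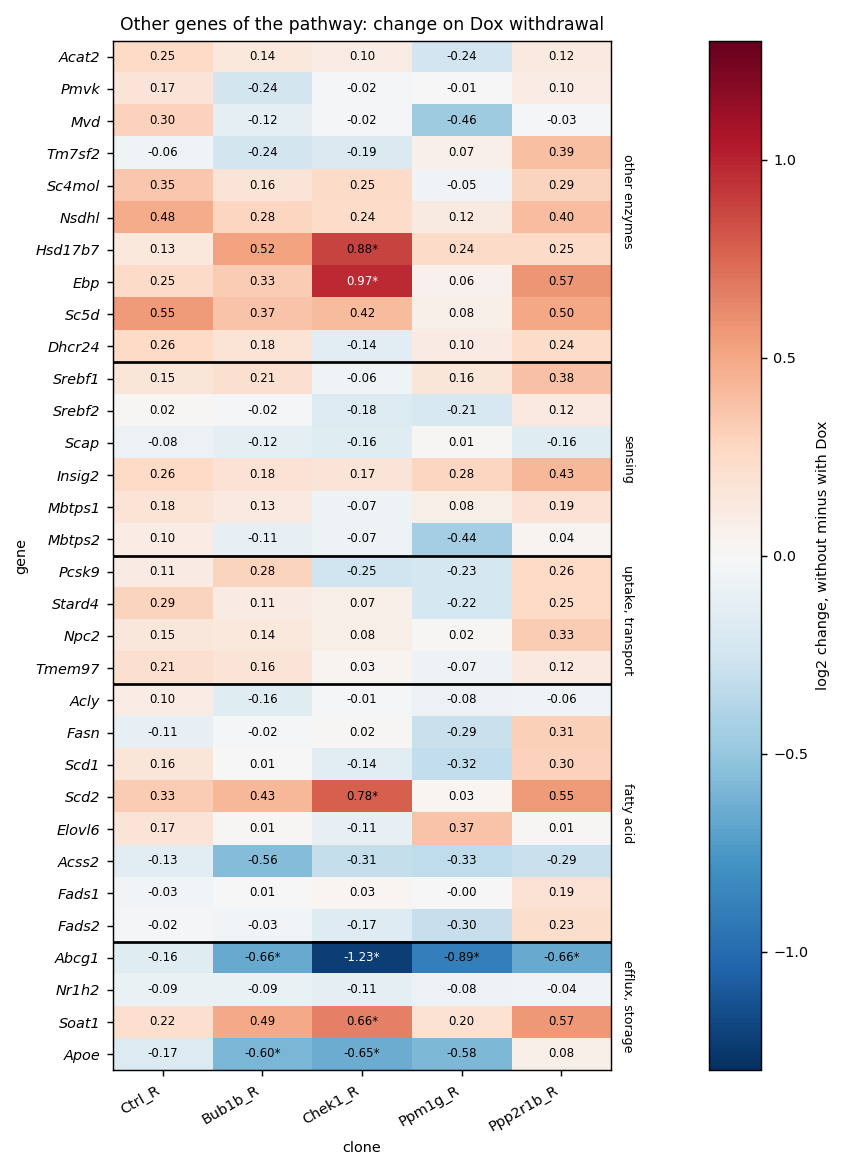
Log2 change on Dox withdrawal (without minus with Dox) of the brightest probe of the tested genes reported here from the 5 lists, by clone; colour and number give the limma estimate, and an asterisk marks an adjusted p under 0.05 with at least 1.5-fold. Abcg1 lies at -0.66 to -1.23 in the 4 clones and at -0.16 in Ctrl_R.

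The members did not vary as one block. Over the 10 condition means, the correlation of a gene with the mean of the others was 0.879 for Dhcr7, 0.702 for Insig1, 0.566 for Sqle, 0.508 for Idi1, 0.390 for Fdps, 0.389 for Cyp51 and -0.263 for Lss. The genes whose pattern was most like the mean of the members were 0610007P14Rik (r = 0.927), Fgd5 (0.912), Atpbd3 (0.895), P2ry10 (0.868) and 1110049B09Rik (0.863). The 10 means share arrays and normalization, and these correlations are a description.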

How the data were processed

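RNA of 30 samples was hybridised to Illumina Mouse WG8-V2 BeadChips. The authors deposited a non-normalized table that holds, for each probe on each array, a background-corrected signal intensity and a detection p-value; the submitters' processing notes name lumi, and its version and settings are not given in the sources used here. Every column of the table was mapped to a sample by its name (0 columns left over). Spreadsheet software had turned some detection p-values into dates: 46 cells on 1 Ppm1g_R array without Dox and 14 cells on 1 Bub1b_R array without Dox. Of these, 28 and 6 were converted back. The remaining 18 and 8 cells took the detection p-value of whichever probe came closest in signal within that array.

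From these intensities, log2 values were computed by neqc (detection p-values, offset 16, quantile) in limma 3.58.1 (R 4.3.3). Probes detected (p under 0.05) on 3 or more arrays were kept. A single limma fit held 10 condition means (20 residual and 3.38 prior degrees of freedom), with Benjamini-Hochberg adjustment over all tested probes in a contrast. The replicate block was added to this fit as fixed terms for the replicate number. They were set within each clone for the changes and the F-test, and across clones for the levels. The number of arrays limits the precision. The brightest probe that passed the filter stood for a gene.

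Named genes were all members in every comparison, the targeted genes, and from each list up to 3 genes with the largest absolute mean change over the 4 clones, plus Srebf1, Srebf2, Scap and Insig2. Members and lists were chosen with earlier results of these data known. Mvk, Fdft1, Npc1 and Acaca are not analysed here, and some genes of the lists are not reported here. Alternatives were other offsets, no background correction, median scaling, other filters, other fold limits, the compared arrays alone, a replicate block, averaging over the probes of a gene, leaving out each array and the methods' t-test; leaving the arrays labelled Chek1_R out of the mean and normalizing each array set alone were chosen after seeing the data. Promoters came from RefSeq (GRCm38.p6).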

Additional observations from a re-analysis of the deposited data

Results flagged for a closer look

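The change on Dox withdrawal differed from that in Ctrl_R in Ppm1g_R, by the test of the difference itself, for 3 genes: Lss (-0.78), Dhcr7 (-0.77) and Insig1 (-0.62), each on the log2 scale. Of all probes, 2.54% were lower and passed in that comparison. Insig1 was lost with some single arrays left out (limma adjusted p = 0.0564 to 0.0715). Among Bub1b_R, the arrays labelled Chek1_R, Ppm1g_R and Ppp2r1b_R the change differed by the F-test for Sqle (adjusted p = 0.00336), Lss (0.00786), Cyp51 (0.00964), Insig1 (0.0219) and Dhcr7 (0.0375). The F-test passed for 24.0% of all probes, and with the replicate block it did not pass for Lss (0.0615) and Dhcr7 (0.0999). The cause was not tested.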

How the results depend on the processing

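With no limit on fold, the numbers of 7 members past the adjusted p were 1, 4, 3 and 4 for the change on Dox withdrawal in Bub1b_R, Ppm1g_R, Ppp2r1b_R and Ctrl_R, 2, 3 and 6 for the change against Ctrl_R in Bub1b_R, the arrays labelled Chek1_R and Ppm1g_R, 5 for Ppm1g_R against Ctrl_R without Dox, 4 and 5 for Bub1b_R and the arrays labelled Chek1_R with Dox, and 2 for the mean of the 4 clones. Much of the array passed in the comparisons of levels. By the methods' t-test with no limit on fold, 7902, 4266 and 5382 of all 15151 probes had an adjusted p under 0.05 there, in the same order. By that test 5, 3 and 3 of 7 members had one. The limma shares of all probes with no limit on fold are not given here for these levels. Nor are the shares for the member counts under the settings below, so those counts cannot be set against the whole array. With a 2-fold limit the numbers of members in limma were 0 for the change in Ppm1g_R against Ctrl_R and 0, 0, 1 and 1 for the levels of the 4 clones, without and with Dox alike. With median scaling, the median change was 0.12 on the arrays labelled Chek1_R, 0.09 in Bub1b_R and -0.30 in Ppm1g_R, and against Ctrl_R it was -0.29 on the first and -0.62 on the last. The sign turned for Fdps (0.05) and Dhcr7 (0.04) in Bub1b_R, for Lss (0.00), Dhcr7 (0.05) and Cyp51 (0.12) on the arrays labelled Chek1_R, and against Ctrl_R for Idi1 on the latter (0.04) and Sqle in Ppp2r1b_R (-0.02). The counts of levels became 1 in Bub1b_R and 1 in Ppp2r1b_R without Dox, and 2 on the arrays labelled Chek1_R and 1 in Ppp2r1b_R with Dox, where under this scaling the median of all probes against Ctrl_R was -0.18 in Ppp2r1b_R in both Dox states (-0.04 before) and 0.10 in Bub1b_R without Dox (-0.01 before). At an offset of 50, Idi1 turned sign on the arrays labelled Chek1_R against Ctrl_R (0.03), and their counts of levels were 1 without and 0 with Dox. At an offset of 200, the median change was 0.17 in Ppp2r1b_R and 0.30 in Ctrl_R, and against Ctrl_R it was -0.33 on the arrays labelled Chek1_R and -0.02 in Ppp2r1b_R. Idi1 turned sign against Ctrl_R on the arrays labelled Chek1_R (0.05) and in Ppm1g_R (0.01), 1 member passed in Ppm1g_R against Ctrl_R, and the counts of levels were 1 and 1 without Dox and 0 and 0 with Dox in Bub1b_R and the arrays labelled Chek1_R, and 2 in Ppm1g_R with Dox. With values averaged over every probe of a gene, Sqle turned sign in Ppm1g_R (0.02) and in Ppp2r1b_R against Ctrl_R (-0.11), as did Insig1 in the latter (-0.03) and in its levels in Ppp2r1b_R (-0.20 without and -0.17 with Dox), in Ppm1g_R (-0.55) and on the arrays labelled Chek1_R with Dox (-0.36). The median in Bub1b_R against Ctrl_R was then -0.26, with 1 level past the threshold in Ppp2r1b_R without Dox and 2 in Ppm1g_R with Dox. The methods' t-test left 1 on the arrays labelled Chek1_R without Dox, and it was not run for the differences from Ctrl_R, the mean or the F-test. In choices made after seeing the data, Insig1 was at 0.01 in the mean without the arrays labelled Chek1_R, and Fdps at 0.00 in Bub1b_R with each array set normalized alone. The cause of these shifts was not tested. Against Ctrl_R in Ppm1g_R, Lss was past the adjusted p and 1.5-fold in all 11 settings (limma adjusted p 9.5e-06 to 0.00494), Dhcr7 in 10 and Insig1 in 8. These 11 include the settings with no fold limit and with a 2-fold limit. Both hold the values of the main fit and were counted here at 1.5-fold, so they add no separate support.

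Same-numbered arrays of a clone deviated together at r of -0.084 to 0.131, with 1 of 15 pairs over 0.1. Of the 15, 6 matched their own number best, each Bub1b_R array among them (r of 0.087, 0.022 and 0.073). The labels number the replicates but state no pairing, and low correlations cannot exclude one. With the replicate block, 3 members passed the F-test, Sqle (0.0307), Cyp51 (0.0234) and Insig1 (0.0418), and Lss (0.0615) and Dhcr7 (0.0999) did not. Of all 15151 probes, 2889 passed the F-test with the block and 3639 without it. No other count of members past the threshold moved by over 1.5 times with the block. With 1 array left out at a time, the median change ran from 0.01 to 0.16 in Bub1b_R, -0.24 to -0.13 in Ppm1g_R, 0.25 to 0.37 in Ppp2r1b_R and 0.32 to 0.42 in Ctrl_R, and against Ctrl_R from -0.27 to -0.15 in Bub1b_R, -0.46 to -0.30 on the arrays labelled Chek1_R, -0.54 to -0.42 in Ppm1g_R and -0.20 to 0.02 in Ppp2r1b_R. Counts of levels ran from 1 to 3 in Bub1b_R (lowest without its replicate 1) and from 1 to 2 on the arrays labelled Chek1_R (lowest without their replicate 2 or Ctrl_R replicate 1) without Dox, and from 0 to 2 on the latter with Dox (0 without their replicate 1 or Ctrl_R replicate 3, 2 without their replicate 3). Counts of changes against Ctrl_R ran from 0 to 1 in Bub1b_R (1 without replicate 3 without Dox) and from 0 to 1 on the arrays labelled Chek1_R (1 when their replicate 2 with Dox or 1 without was left out, or replicate 1 of Ctrl_R with Dox or 2 without). Signs turned only in values that had not passed: in Bub1b_R for Insig1 (-0.06 to 0.16), Fdps (-0.02 to 0.02), Lss (-0.03 to 0.05) and Dhcr7 (-0.12 to 0.05), on the arrays labelled Chek1_R for Dhcr7 (-0.08 to 0.02) and Cyp51 (-0.02 to 0.00), in Ppp2r1b_R for Idi1 (-0.08 to 0.55) and Fdps (-0.01 to 0.08), in the mean for Fdps (-0.02 to 0.01), and against Ctrl_R for Idi1 on the arrays labelled Chek1_R (-0.24 to 0.16), in Ppm1g_R (-0.39 to 0.02) and in Ppp2r1b_R (-0.56 to 0.08), and in Ppp2r1b_R for Sqle (-0.03 to 0.10), Insig1 (-0.06 to 0.22) and Cyp51 (-0.01 to 0.20). The spread of the Idi1 probe, and the unequal lowest detected signal of the array sets, limit what the levels can show.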
